A study of Mus musculus with 6 samples.

Results

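The genes described here encode 10 calcium-regulated proteins of the S100 and annexin families, 5 S100 proteins (S100a4, S100a6, S100a10, S100a11 and S100a13) and 5 annexins (Anxa1, Anxa2, Anxa3, Anxa5 and Anxa6). They were taken by gene symbol from the deposited expression table, which lists 21878 genes, around the binding partners S100a10 and Anxa2. RNA was measured in 6 input libraries of a MeRIP-seq experiment on HT22 cells, that is, in fragmented RNA that had not been enriched for m6A. The question was which transcripts differed between cells with and without aluminum exposure. The control group (3 libraries) received no aluminum, and the Al group (3 libraries) received aluminum maltolate, for 24 h by the general treatment protocol. The study's methods give 120 µM as the dose of the sequenced cells, and the series' design text a range of up to 240 µM. The study listed both a medium-only control and a control with the ligand maltol alone, and its text does not say which of them was sequenced. The sample labels carry only a letter and a number, and the libraries lettered M were read as aluminum-treated because the study's supplementary tables use both names for 1 comparison. Replicates were described as biological, and whether they came from separate cultures or days is not given in the sources used here, so the P values measure the spread between these libraries.

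HT22 is an immortalised mouse hippocampal line, a subline of HT4, and all 6 libraries come from this 1 line with no change to its genotype described for these groups. The labels call the cells hippocampal neurons. Of 13 neuron markers, 12 had a mean under 1 FPKM, among them Rbfox3, Map2, Snap25 and Syp. As deposited, the list summed to 5.73 to 6.12 FPKM in control libraries and to 3.12 to 4.56 FPKM in Al libraries. After scaling by size factors the sums overlapped, at 4.83 to 5.06 and 3.83 to 5.64. Of the 3 neuron markers tested, 0 were called higher and 0 lower after that scaling (26.2% and 24.4% of all genes). The 9 fibroblast and mesenchymal markers summed to 4174 to 6213 FPKM and 4599 to 5824 FPKM in the same order, with Col1a1 at 990 ± 233 and 1327 ± 299 FPKM (SD, n = 3 each). All 7 oligodendrocyte markers and 6 of 7 microglia and macrophage markers had a mean under 1 FPKM, and the 7 astrocyte markers summed to between 32.3 and 42.6 FPKM in every library. Of those tested, 1 of 2 oligodendrocyte markers (Cnp) and 2 of 4 microglia and macrophage markers (Cx3cr1 and Cd68) were called higher after scaling. In these lists 0 were called lower (26.2% and 24.4% of all genes were called higher and lower). After scaling, 3 of the 9 mesenchymal markers were called higher in the Al group (Col1a1, Thy1 and Tagln) and none lower, against 26.2% and 24.4% of all genes. The deposited FPKM gave 2 higher and 2 lower (14% and 42% of all genes), TPM gave 2 and 3 (9.31% and 53.1%), and quantile normalization gave 2 and 5 (22.2% and 24.2%), where Col1a1 turned to a log2 fold change of -0.46. The part of these markers in the results on S100 genes and annexins was not tested. The libraries held 20973691 to 44220124 reads on genes, recovered from the FPKM values, and every Al library was shallower than every control library. The cells are here called HT22 cells and not neurons.

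S100 proteins are small EF-hand proteins that change shape when calcium binds and then attach to target proteins, and annexins bind the acidic phospholipids of membranes when calcium rises. Pairs of the families work together: S100A10, which no longer needs calcium, holds the amino end of annexin A2 in a complex that bridges membranes and docks plasminogen and ion channels, and S100A11 binds annexin A1 in the presence of calcium. Both families serve in membrane repair, exocytosis and the shaping of the actin cortex, and in the brain several members are better known from glia and other non-neuronal cells than from neurons.

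Of the 10 genes, 7 were called higher in the Al group, 0 were called lower and 3 were not called. To be called, a gene needed a limma P under 0.05 and a log2 fold change beyond 0.58 in either direction, the thresholds of the study, on FPKM divided by a size factor per library. Over all 12889 genes tested the same rule called 26.2% higher and 24.4% lower, so the count of 7 of 10 stands against a background in which a call upward was common. The 10 genes were chosen with earlier results of these data known, so comparing them with all genes is a description and not a test. All 7 also had a Benjamini-Hochberg adjusted P under 0.05 in limma, a rule that 25.5% of all genes met upward. None of the 10 fell with an unadjusted P under 0.05, either in limma on scaled FPKM or in limma voom on recovered reads. The median log2 fold change was 1.22 over the 10 genes and 0.03 over all genes tested, and it was 1.31 over the 5 S100 genes and 0.62 over the 5 annexins. In 7 of the 10 genes every scaled Al library lay above every scaled control library, which held for 35.1% of all genes, and in none did every Al library lie below, which held for 33.1%. The genes that were called are Anxa2, S100a6, S100a11, Anxa5, S100a4, S100a10 and Anxa1, and the direction of S100a4 and Anxa1 depended on the scaling, as given below. In bulk RNA of this kind, a change in the share of cells that express a gene and a change in RNA per cell cannot be told apart.

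The promoters of the 5 genes with the largest increase among those in the RefSeq promoter table (build GRCm38.p6) are shown because all 5 were called higher after scaling by size factors. The table held 7 of the 10 genes. S100a10, Anxa3 and Anxa6 were not among them. Each run gives the 250 bases before the RefSeq start on the gene's own strand, 5′ to 3′, and capitals mark matches to the searched motifs. The windows lie at chr9:69453433-69453682 (+, Anxa2), chr3:90612644-90612893 (+, S100a6), chr3:93520246-93520495 (+, S100a11), chr3:36475888-36476137 (−, Anxa5) and chr3:90603520-90603769 (+, S100a4).
Anxa2: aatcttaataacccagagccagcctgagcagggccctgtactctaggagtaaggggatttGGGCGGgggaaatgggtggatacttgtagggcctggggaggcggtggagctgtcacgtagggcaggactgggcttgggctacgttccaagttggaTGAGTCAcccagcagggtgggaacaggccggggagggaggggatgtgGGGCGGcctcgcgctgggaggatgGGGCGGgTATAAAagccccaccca
S100a6: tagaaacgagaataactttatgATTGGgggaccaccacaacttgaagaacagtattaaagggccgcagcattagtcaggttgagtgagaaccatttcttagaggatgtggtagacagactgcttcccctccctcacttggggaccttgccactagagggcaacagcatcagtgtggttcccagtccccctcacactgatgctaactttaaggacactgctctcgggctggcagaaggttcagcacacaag
S100a11: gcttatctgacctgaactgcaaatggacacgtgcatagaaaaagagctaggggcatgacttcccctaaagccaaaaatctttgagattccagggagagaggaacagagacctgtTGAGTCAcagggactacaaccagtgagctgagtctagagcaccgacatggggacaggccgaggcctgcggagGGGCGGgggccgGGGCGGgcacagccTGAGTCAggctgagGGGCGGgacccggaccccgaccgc
Anxa5: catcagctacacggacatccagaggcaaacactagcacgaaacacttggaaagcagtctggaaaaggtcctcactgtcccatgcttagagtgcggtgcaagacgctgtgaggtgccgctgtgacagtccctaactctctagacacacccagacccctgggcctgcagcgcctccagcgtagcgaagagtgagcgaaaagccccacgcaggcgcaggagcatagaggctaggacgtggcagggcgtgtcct
S100a4: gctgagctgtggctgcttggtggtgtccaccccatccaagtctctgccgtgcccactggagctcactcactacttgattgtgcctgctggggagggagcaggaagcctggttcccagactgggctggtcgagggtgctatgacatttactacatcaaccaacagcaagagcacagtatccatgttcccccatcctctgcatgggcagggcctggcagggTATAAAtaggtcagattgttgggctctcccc

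The 5 motifs searched on both strands were TGANTCA (the AP-1 site), TATAAA (the TATA box), CCAAT (the element bound by NF-Y), GGGCGG (the GC box) and TGACNNNGC (the core of the antioxidant response element), and no match overlapped another. TGANTCA was found in 2 of the 7 windows, once in Anxa2 at positions -95 to -89 from the start and in S100a11 at -136 to -130 and at -38 to -32, against 6.75% of all 32851 promoters of the same length. These windows of Anxa2 and S100a11 each also held 3 GC boxes, a motif present in 32.7% of all promoters. TATAAA stood in S100a4 at positions -31 to -26, in Anxa1 at -32 to -27 and in Anxa2 at -17 to -12, and in 12.4% of all promoters. CCAAT was found in S100a6 alone, on the opposite strand at positions -228 to -224, and in 33.8% of all promoters. The TGACNNNGC letters were in none of the 7 windows and in 10.2% of all promoters. Anxa5 and S100a13 matched none of the 5 motifs.

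S100a10 and Anxa2, which encode the partners of 1 complex, both rose in the Al group, and Anxa2 rose more. Anxa2 (chr9:69453620-69491795, plus strand) was at 176, 175 and 202 FPKM in control replicates 1, 2 and 3, and at 764, 782 and 409 FPKM in Al replicates 1, 2 and 3. Every Al library was above every control library, and Al replicate 3 stood well below the other Al libraries. After scaling, Anxa2 was 4.76-fold higher in the Al group (log2 fold change 2.25, SE 0.29, adjusted P = 0.00023, limma). It was the largest of the 10 changes under median-of-ratios scaling, and its position among all genes by mean FPKM went from 285 to 112.

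S100a10 (chr3:93555080-93564643, plus strand) was at 263, 323 and 305 FPKM in the control libraries and at 566, 527 and 332 FPKM in the Al libraries. The groups did not overlap, but Al replicate 3 lay only just above the highest control library. After scaling the gene was 2.19-fold higher in the Al group (log2 fold change 1.13, SE 0.26, adjusted P = 0.00469, limma). With TPM or quantile normalization its log2 fold change was 0.35 and 0.33, below the fold threshold.

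The ratio of S100a10 to Anxa2 within a library does not depend on any factor applied to the whole library. It was 1.49, 1.84 and 1.51 in control replicates 1 to 3 and 0.740, 0.675 and 0.811 in Al replicates 1 to 3, so that S100a10 had the higher FPKM of the pair in every control library and the lower one in every Al library. The means were 1.61 ± 0.200 and 0.742 ± 0.0682 (SD, n = 3 each), a difference in log2 ratio of -1.12 (SE 0.13). The exact two-sided permutation test gave P = 0.1, the smallest value that 3 against 3 libraries allow. Leaving out each library in turn kept the difference between -1.18 and -1.02. Al replicate 3, which had the lowest FPKM of the Al libraries for S100a10 and Anxa2, had the highest ratio of the 3.

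S100a11, whose product binds annexin A1 and takes part in sealing torn plasma membrane, rose more than Anxa1. S100a11 (chr3:93520488-93526287, plus strand) was at 469, 432 and 446 FPKM in the control libraries and at 1242, 1225 and 757 FPKM in the Al libraries, with no overlap. The scaled fold change was 3.28 (log2 1.71, SE 0.27, adjusted P = 0.00067, limma). Its values are uncertain to the extent that reads were shared with 3 pseudogene copies of up to 99.0% identity, and no other gene of the 10 had such a copy.

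Anxa1 (chr19:20373428-20390944, minus strand), a protein known for ending inflammation through formyl peptide receptors, was at 161, 181 and 138 FPKM in the control libraries and at 196, 170 and 158 FPKM in the Al libraries. As deposited the groups overlapped. After scaling they did not, and the gene was called higher by a narrow margin (1.53-fold, log2 0.62, SE 0.16, adjusted P = 0.00998, limma), whereas the deposited FPKM gave a log2 fold change of 0.13, TPM gave -0.17 and quantile normalization -0.068. Without control replicate 3 or without Al replicate 1 it was 0.51 and 0.49, below the fold threshold.

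The ratio of S100a11 to Anxa1 was 2.92, 2.39 and 3.23 in control replicates 1 to 3 and 6.34, 7.22 and 4.80 in Al replicates 1 to 3. Every Al library exceeded every control library. The means were 2.85 ± 0.427 and 6.12 ± 1.23 (SD, n = 3 each), and the log2 ratio differed by 1.10 (SE 0.22, exact two-sided permutation P = 0.1). Quantile normalization, which is not a single factor per library, left a difference of 0.66 for this pair and of -1.06 for S100a10 to Anxa2. The pairs thus moved in different senses: the annexin gained on its S100 partner in the pair of S100a10 and Anxa2, and the S100 gene gained on its annexin in the pair of S100a11 and Anxa1.

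**Figure D1:**
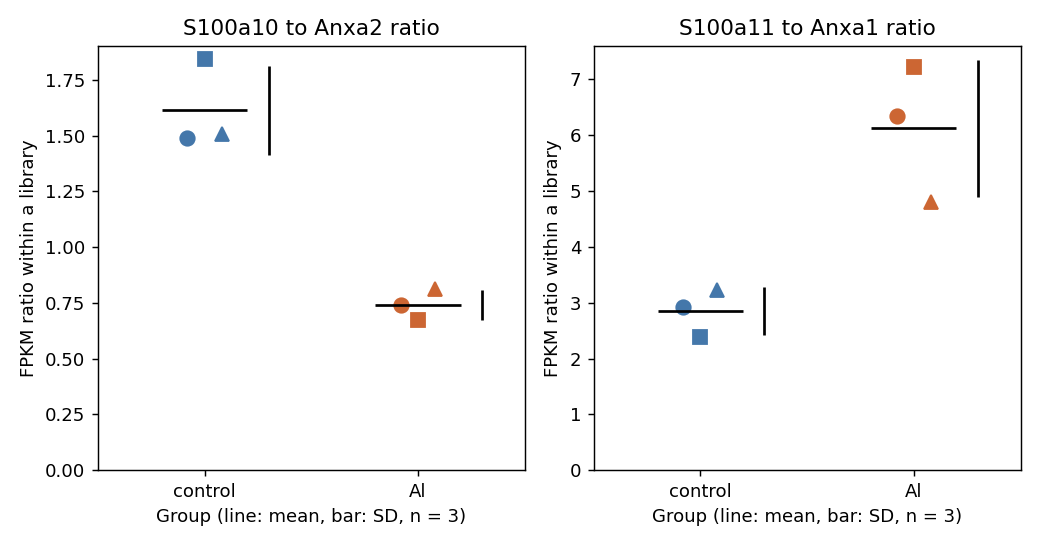
Ratio of FPKM within a library for S100a10 over Anxa2 (left) and S100a11 over Anxa1 (right), with circles, squares and triangles for replicates 1, 2 and 3, lines for means and bars for SD (n = 3 per group, axes from 0). The left ratio falls from a mean of 1.61 to 0.742 and the right ratio climbs from 2.85 to 6.12, with no overlap between groups in either panel.

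S100a4 and S100a6 were the most abundant of the 10 genes and lie close together on chromosome 3, with only S100a5 between them. S100a4 (chr3:90603771-90606045, plus strand), also called fibroblast-specific protein or metastasin, encodes a protein that binds non-muscle myosin. It was at 1395, 1647 and 1338 FPKM in the control libraries and at 3032, 2725 and 2046 FPKM in the Al libraries, so that the lowest Al library exceeded the highest control library. After scaling it was 2.48-fold higher in the Al group (log2 1.31, SE 0.32, adjusted P = 0.00674, limma), but the log2 fold change was 0.52 with TPM and -0.20 with quantile normalization. By mean FPKM it held place 16 among control values and place 21 among Al values, and it alone took 0.391% ± 0.0456 and 0.561% ± 0.0786 of the summed FPKM (SD, n = 3 each). Reads of S100a4 may include some of Gm42674, a gene model on the same strand that overlaps it.

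S100a6 (chr3:90612882-90624181, plus strand), which encodes calcyclin, was at 549, 578 and 600 FPKM in the control libraries and at 1802, 1507 and 1061 FPKM in the Al libraries. The control libraries lay close together and the Al libraries spread widely above them. The scaled fold change was 3.47 (log2 1.80, SE 0.28, adjusted P = 0.00061, limma), and with quantile normalization the log2 fold change of 0.52 was below the fold threshold. Cacybp and Sugt1, 2 known targets of calcyclin, were not called, with scaled log2 fold changes of 0.30 and 0.12.

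S100a13 (chr3:90514435-90524581, plus strand), whose product helps to export FGF1 and interleukin 1 alpha from cells, was expressed at a far lower level than the other genes. It was at 1.39, 2.18 and 1.05 FPKM in the control libraries and at 1.25, 1.62 and 0.836 FPKM in the Al libraries, and the groups overlapped. These values rest on 45 to 91 recovered reads per control library and 17 to 34 per Al library. The scaled log2 fold change was 0.17 with a 95% interval of -0.59 to 0.93 (adjusted P = 0.671, limma), so a rise or fall within that interval was not detectable here, and the sign turned with FPKM as deposited (-0.28) and with TPM (-0.56).

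**Figure D2:**
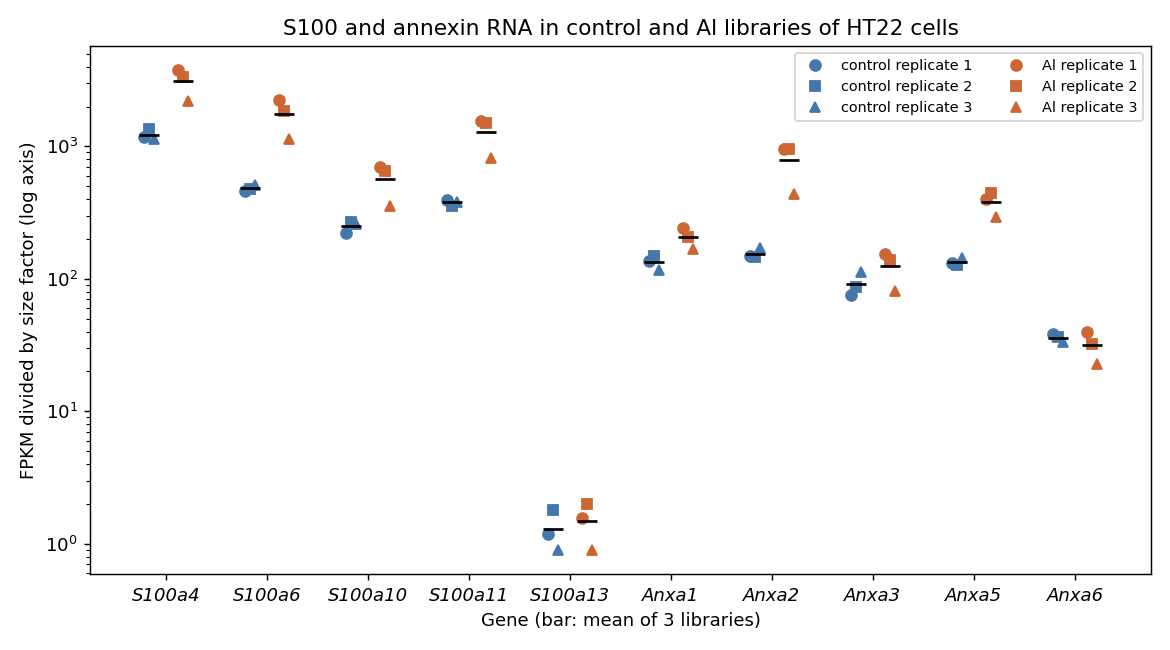
FPKM divided by the size factor of each library (log axis) for the 10 genes, with control libraries in blue, Al libraries in orange, circles, squares and triangles for replicates 1, 2 and 3, and bars for means of 3 libraries. In 7 genes the Al libraries lie wholly above the control libraries, in S100a13, Anxa3 and Anxa6 the groups overlap, and the triangle of Al replicate 3 is the lowest Al library throughout.

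Anxa5 (chr3:36448923-36475894, minus strand), whose protein is widely used to stain phosphatidylserine on dying cells, was at 157, 154 and 170 FPKM in the control libraries and at 324, 361 and 274 FPKM in the Al libraries. All Al libraries stood well above the control libraries, and Al replicate 3 departed less from the others than in Anxa2. The scaled fold change was 2.78 (log2 1.47, SE 0.17, adjusted P = 0.00013, limma), the smallest adjusted P of the 10 genes. The change was also past both thresholds under every alternative scaling, at a log2 fold change of 0.99 for the deposited FPKM, 0.69 for TPM and 0.78 for quantile normalization.

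Anxa3 (chr5:96793339-96845966, plus strand) was not called. It was at 89.6, 105 and 133 FPKM in the control libraries and at 123, 114 and 75.8 FPKM in the Al libraries, with 2 Al libraries inside the control range and Al replicate 3 below it. The scaled log2 fold change was 0.41 with a 95% interval of -0.15 to 0.97 (adjusted P = 0.177, limma), while the deposited FPKM gave -0.079, TPM gave -0.38 and quantile normalization -0.18. Without Al replicate 3 it was 0.70 and past both thresholds.

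Anxa6 (chr11:54979108-55033445, minus strand), an annexin with a duplicated core that anchors membranes to actin, was the only one of the 10 genes whose deposited values were lower in every Al library. It was at 45.7, 44.0 and 39.0 FPKM in the control libraries and at 31.6, 26.3 and 21.2 FPKM in the Al libraries. After scaling the groups overlapped and the log2 fold change was -0.23 with a 95% interval of -0.65 to 0.19 (adjusted P = 0.301, limma). With FPKM as deposited it was -0.72 and with TPM -1.01, both past the thresholds, and with quantile normalization -0.52, short of the fold threshold. Leaving out each library in turn gave scaled values from -0.40 (without Al replicate 1) to -0.0028 (without Al replicate 3), none of them past the fold threshold. Relative to the median of all genes tested, Anxa6 was at -0.26 with size factors, -0.28 as deposited, -0.30 under TPM and -0.49 under quantile normalization.

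The differences between scalings are mostly a common shift. Compared with size factors, the median log2 fold change of all genes was shifted by -0.46 for the deposited FPKM and by -0.75 for TPM, and the share of calls that were higher went from 51.8% to 25.0% and 14.9%. Relative to that median, Anxa2 was at 2.22 with size factors, 2.20 as deposited and 2.18 with TPM, and S100a10 was at 1.10, 1.08 and 1.06. Quantile normalization moved the median by only -0.06 but changed single genes unequally, leaving Anxa2 at 1.42 above the median, S100a6 at 0.54 and S100a4 at -0.17. Under TPM 4 of the 10 genes were called higher, namely Anxa2, S100a6, S100a11 and Anxa5, and under quantile normalization 3, namely Anxa2, Anxa5 and S100a11. TPM called 9.31% of all genes higher and 53.1% lower, and quantile normalization 22.2% and 24.2%, so that the 3 of 10 under quantile normalization is near the background. The deposited FPKM called 6 of the 10 genes higher and 1 lower (Anxa6), against 14% and 42% of all genes.

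**Figure D3:**
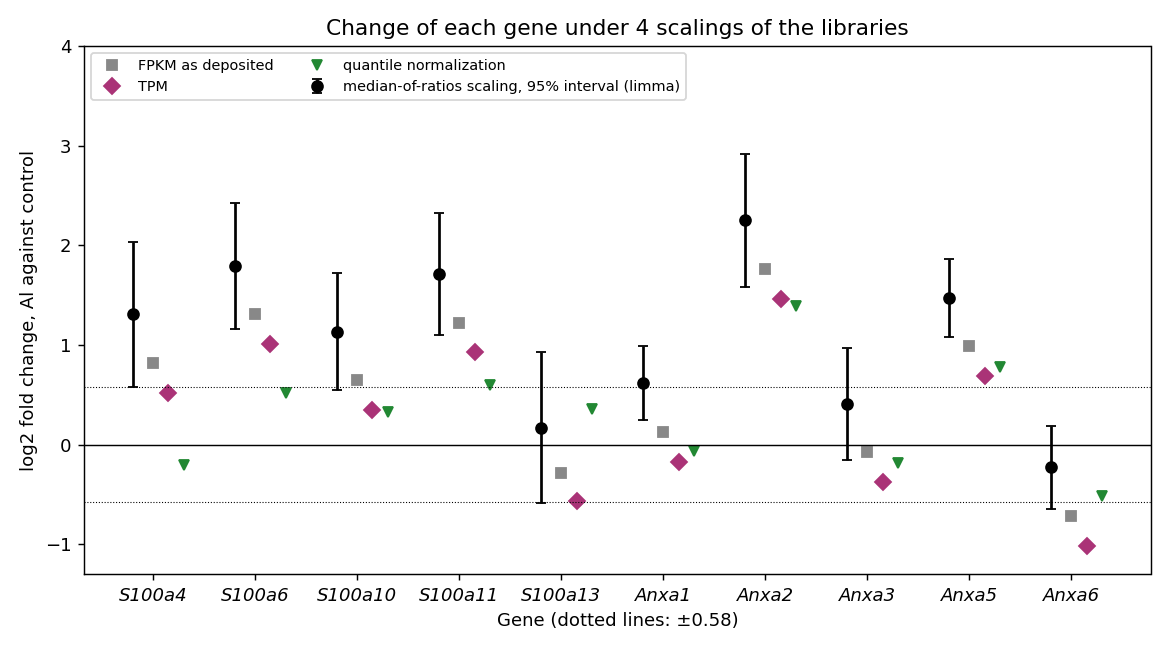
log2 fold change of the 10 genes, Al against control, under 4 scalings, with 95% intervals from limma for median-of-ratios scaling and dotted lines at the fold threshold of 0.58. Anxa2, S100a6, S100a10, S100a11 and Anxa5 stay above 0 under all 4 scalings, Anxa6 stays below 0, S100a4 turns negative under quantile normalization (-0.20), Anxa1 under TPM and quantile normalization, Anxa3 under all 3 alternatives, and S100a13 under FPKM as deposited and TPM.

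The 10 genes together took a larger share of the summed FPKM in the Al group, mainly through the abundant S100a4, S100a6 and S100a11. That share was 0.916%, 0.968% and 0.875% in control replicates 1 to 3 and 1.69%, 1.57% and 1.20% in Al replicates 1 to 3, with no overlap. The means were 0.920% ± 0.0470 and 1.48% ± 0.255 (SD, n = 3 each), a 1.61-fold difference (exact two-sided permutation P = 0.1). When the 50 most abundant genes, of which S100a4 is 1, and the ribosomal protein genes were left out of the denominator, the means were 1.19% and 2.46%. Al replicate 3 had the lowest scaled value among the Al libraries in all 10 genes. How often that held over all genes was not computed, and its size factor (0.932) was above those of Al replicates 1 and 2 (0.802 and 0.815). Without Al replicate 3, 8 of the 10 genes were called higher, with Anxa3 as the addition. The share of all genes called without that library was not computed, so the gain cannot be read as particular to these genes.

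The other S100 genes were at low levels. The list of further S100 genes did not include S100a2, which was also called higher (log2 fold change 3.13). Of the 11 genes on it, 9 were tested, 3 of them were called higher (S100a5, S100a7a and S100a8), 2 lower (S100a1 and S100g) and 4 were not called, near the shares over all genes (26.2% and 24.4%), beside a median log2 fold change of 0.06 in this list. S100a7a was at 0.343, 0.344 and 0.517 FPKM in the control libraries and at 1.27, 1.30 and 1.84 FPKM in the Al libraries (log2 fold change 2.06, SE 0.24, adjusted P = 0.00013, limma). S100a8, which encodes a subunit of calprotectin, had 1 recovered read in the 3 control libraries together and 14 in the Al libraries, a ratio of 25.3 per read on genes with an exact 95% interval of 3.85 to 1070. The Al reads were uneven, with 9, 4 and 1 in Al replicates 1 to 3, so that Al replicate 3 had as many as control replicate 1. S100a9, its partner in calprotectin, had 0 reads in all 6 libraries, which allows up to 3 expected reads in each.

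S100a1, which lies head to head with S100a13 at a distance of 0.043 kb, had 34 recovered reads in the control libraries and 1 in the Al libraries. That is a ratio of 18.8 in favour of the control group with an exact 95% interval of 3.15 to 764, an interval that covers counting error only, as for S100a8. S100a5 lies between S100a4 and S100a6 but had only 3 to 15 reads per library. It was called higher (log2 fold change 1.36, adjusted P = 0.0364, limma), and the call was lost with FPKM as deposited, TPM or a pseudocount of 1, and without control replicate 2, control replicate 3 or Al replicate 2. S100g, known as calbindin-D9k, was at 4.16 ± 1.38 and 1.82 ± 0.702 FPKM (SD, n = 3 each). It was called lower on the unadjusted P (log2 fold change -0.70, adjusted P = 0.0549, limma), and the call was lost in 10 alternatives, among them quantile normalization (-0.37), limma voom and the omission of single libraries from either group.

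S100a16 was at 2.47 ± 0.357 and 2.42 ± 0.507 FPKM in the control and Al groups (SD, n = 3 each) and was not called, but was called higher with quantile normalization (log2 fold change 0.73) and without Al replicate 3 (0.69). S100a3 was at 0.740 ± 0.125 and 0.555 ± 0.119 FPKM, and it was not called either. S100b, a marker of astrocytes, was at 0.185 ± 0.0725 and 0.0527 ± 0.0297 FPKM, and S100a14 at 0.125 ± 0.117 and 0.125 ± 0.217 FPKM, and neither was called. S100b was called lower, however, under the 3 other scalings (log2 fold change -0.89 to -1.03), without the filter and without the trend. S100z had 0 reads in every library. Along chromosome 3 (GRCm38, GENCODE M21), abundant and scarce genes are neighbours: S100a4 and S100a6, with S100a5 between them, sit in 63.6 kb from S100a3 to S100a6, and S100a11 and S100a10 are 28.8 kb apart at the far end.

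**Figure D4:**
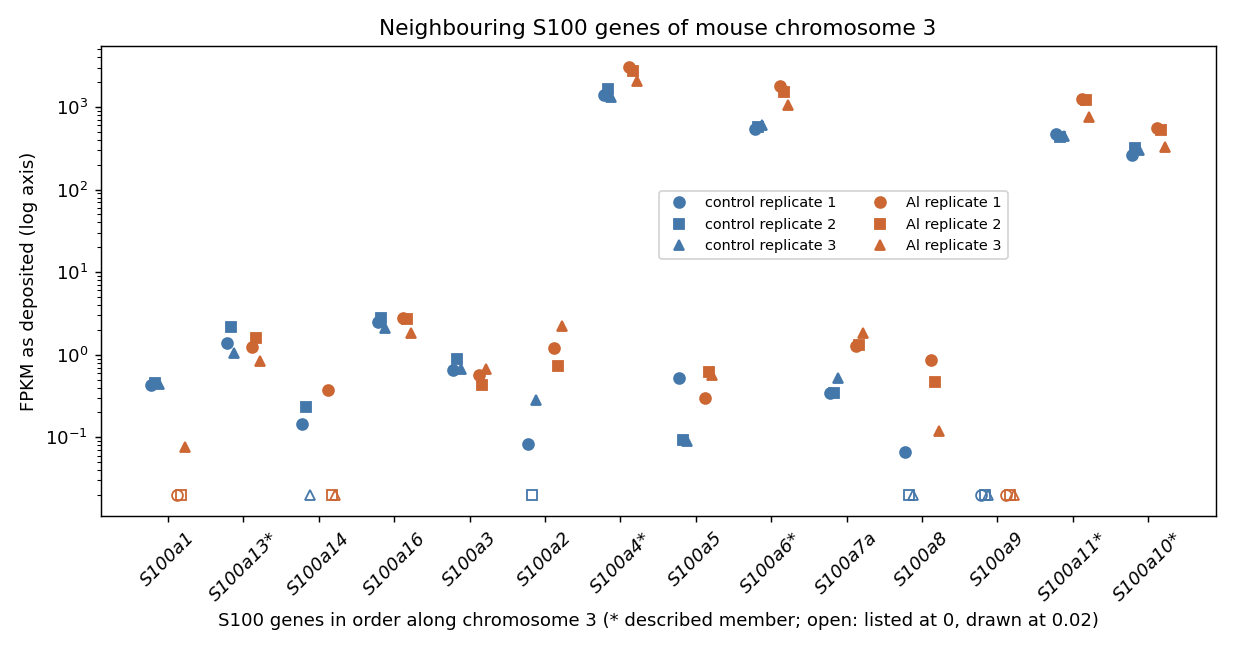
Deposited FPKM (log axis) of the S100 genes of chromosome 3 in their order, control libraries in blue and Al libraries in orange, circles, squares and triangles for replicates 1, 2 and 3, open symbols for values listed at 0. S100a4, S100a6, S100a11 and S100a10 stand at 263 FPKM and above in every library, while their neighbours stay under 3 FPKM.

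The remaining annexins went in both directions. Of 7 further annexins 5 were tested, 1 was called higher, 2 were called lower and 2 were not called, beside 26.2% and 24.4% of all genes, and the median log2 fold change was -0.47. Anxa8 was at 2.08, 2.94 and 7.57 FPKM in the control libraries and at 16.2, 20.7 and 8.25 FPKM in the Al libraries (log2 fold change 2.41, SE 0.50, adjusted P = 0.00285, limma). The groups did not overlap, although control replicate 3 and Al replicate 3 were close.

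Anxa7, known as synexin, a promoter of granule fusion, was at 13.5, 14.1 and 13.9 FPKM in the control libraries and at 2.49, 2.29 and 3.42 FPKM in the Al libraries (log2 fold change -1.84, SE 0.13, adjusted P = 1.44e-05, limma). Anxa11, which tethers RNA granules to lysosomes, was at 18.7 ± 1.27 and 8.13 ± 0.805 FPKM (SD, n = 3 each, log2 fold change -0.71, adjusted P = 0.00048, limma). Both fell under every alternative scaling. Anxa4 was at 36.9 ± 1.19 and 39.3 ± 3.42 FPKM with a scaled log2 fold change of 0.57, just short of the fold threshold, which turned to -0.21 with TPM and was past the threshold without Al replicate 3 (0.72). Anxa9 was at 1.23 ± 0.301 and 0.614 ± 0.176 FPKM and was not called, but was called lower with the deposited FPKM (-0.90), with TPM (-1.17) and without Al replicate 3 (-0.60). Anxa10 and Anxa13 had at most 1 read in a library.

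Among the partners of the complex of S100A10 and annexin A2, 10 of 14 genes were tested, 3 were called higher, 3 lower and 4 were not called, near the shares over all genes (26.2% and 24.4%). Ahnak, the giant scaffold that binds the complex at the plasma membrane, was at 228 ± 13.3 and 299 ± 31.3 FPKM (SD, n = 3 each, log2 fold change 0.88, adjusted P = 0.00141, limma), but was called with none of the other 3 scalings. Ctsb, the protease cathepsin B that the complex docks, was at 69.3 ± 5.87 and 124 ± 13.2 FPKM (log2 fold change 1.33). Plaur, the urokinase receptor, was at 5.70 ± 1.69 and 9.44 ± 2.35 FPKM (log2 fold change 1.21). With TPM 0 of the 10 were called higher and 4 lower, against 9.31% and 53.1% of all genes.

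Asic1, an acid-sensing channel that S100A10 brings to the membrane, fell from 5.98 ± 0.865 to 1.72 ± 0.214 FPKM (SD, n = 3 each, log2 fold change -1.27, adjusted P = 0.00047, limma). Plgrkt, a plasminogen receptor, was at 9.16 ± 0.870 and 3.60 ± 1.59 FPKM (log2 fold change -0.92), and Hltf, a helicase-like transcription factor, at 8.28 ± 1.05 and 3.05 ± 0.990 FPKM (log2 fold change -0.97). These 3 were called lower with each of the other scalings too. Plat and Plau, the plasminogen activators, were not called after scaling by size factors.

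Of 15 targets and receptors of the other S100 proteins and annexins, 10 were tested, 0 were called higher, 3 lower and 7 were not called, against 26.2% and 24.4% of all genes. S100pbp, an S100P-binding protein, fell from 12.7 ± 0.671 to 3.70 ± 1.50 FPKM (SD, n = 3 each, log2 fold change -1.34, adjusted P = 0.00045, limma). Ppfibp1, or liprin beta 1, a binding partner of S100A4, fell by 0.91 on the log2 scale from 36.5 ± 3.38 FPKM in the control group. Pla2g4a, the cytosolic phospholipase that annexin A1 restrains, was at 19.0 ± 1.49 and 8.93 ± 1.08 FPKM with a log2 fold change of -0.60, near the threshold. Its call was lost with a pseudocount of 1 (-0.56) and without control replicate 3, Al replicate 1 or Al replicate 2. Cacybp and Stip1 had an unadjusted limma P under 0.05 upward, and Myh9 downward, but all stayed short of the fold threshold. With TPM, 6 of the 10 were called lower, about the share over all genes (53.1%). Myh9, the myosin heavy chain that S100A4 binds, was at 261 ± 10.8 and 143 ± 11.2 FPKM and was not called after scaling (log2 fold change -0.38), while the 3 other scalings gave -0.87 to -1.17, past the thresholds.

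All 16 genes of calcium-dependent membrane repair were tested, 4 were called higher, 1 lower and 11 were not called, and with TPM 2 were called higher and 9 lower. Over all genes the shares were 26.2% higher and 24.4% lower with size factors, and 9.31% higher and 53.1% lower with TPM. The 4 of 16 called higher, and the 9 of 16 called lower with TPM, are near these shares. Cavin1, a coat protein of caveolae that is listed under its older symbol Ptrf, was at 133, 135 and 128 FPKM in the control libraries and at 390, 391 and 258 FPKM in the Al libraries (log2 fold change 1.85, SE 0.21, adjusted P = 0.00013, limma). Trim72, or MG53, which nucleates repair patches in muscle, went from 0.228 ± 0.0682 to 2.01 ± 0.578 FPKM (SD, n = 3 each, log2 fold change 3.06). Capns1, the small calpain subunit, had a log2 fold change of 0.89 and Chmp2a, an ESCRT-III subunit, one of 0.70, and neither was called with the other scalings, Chmp2a turning to -0.086 with TPM. Tsg101, an ESCRT-I subunit, fell from 19.2 ± 1.05 to 7.31 ± 0.806 FPKM (log2 fold change -0.90). The calpains Capn1 and Capn2 and the ferlins Dysf and Myof were not called, but Capn1 had an unadjusted limma P under 0.05 at -0.47, and the 3 other scalings called it lower at -0.59 to -1.25. Of the 3 penta-EF-hand genes Sri, Gca and Pef1, 2 were tested and 0 were called in either direction. Pef1 had a limma P under 0.05 at a log2 fold change of -0.26. Sri and Pef1 were both called lower as deposited (-0.61 and -0.75) and with TPM, against 42% and 53.1% of all genes.

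Over the 6 libraries, the genes whose scaled log2 values were most like those of S100a10 were Ost4, Dnajc15 and Snrpd2, each with a Pearson r of 0.999. Those most like Anxa2 were Atp5b, Cebpb and Aup1, also with r of 0.999. S100a10 and Anxa2 themselves had an r of 0.974, which put Anxa2 at place 337 of 10348 genes for S100a10. An r of at least 0.95 was reached by 798 genes for S100a10 and by 1634 for Anxa2. These correlations describe 6 libraries in 2 groups and carry no test.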

How the data were processed

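RNA was measured by paired-end sequencing of 6 input libraries (3 control, 3 Al) of the MeRIP-seq, made from TRIzol-extracted RNA with a stranded TruSeq mRNA kit. The immunoprecipitated libraries were not analysed here. The deposited table gives FPKM for each gene symbol in each library, and library sums differ, so no further scaling had been applied. The study's methods name Trimmomatic, SortMeRNA and HISAT2 on GRCm38/mm10, while the submitters' processing notes name fastp, HISAT2, HTSeq and GRCm39. Which of these made the table, its gene annotation, and whether counting used strand or pairs are not given in the sources used here, so overlapping genes (Gm42674 with S100a4, Gm16144 with Anxa2, Gm42603 with Anxa3, 1500015L24Rik with Anxa1) may share reads. Coordinates are of GRCm38 (GENCODE M21).

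FPKM values of a gene are whole multiples of a step, and whole reads could be recovered from these steps for each of the 17688 genes above 0, up to a common divisor. The libraries then held 37768842, 43091824 and 44220124 reads on genes in control replicates 1 to 3 and 26487603, 21707504 and 20973691 in Al replicates 1 to 3. Replicate libraries differed by more than sampling noise (median chi-square per gene 3.63 to 10.1), so none was counted as a duplicate. Intervals from reads cover counting error only.

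FPKM was divided by median-of-ratios size factors (0.802 to 1.21, computed on genes detected in every library at a mean of 1 FPKM or more). The 12889 genes with a mean of at least 0.1 FPKM were tested with limma 3.58.1 in R 4.3.3 (lmFit, eBayes with trend) on log2(scaled FPKM + 0.1), a scale that understates changes of low genes, and P values were Benjamini-Hochberg adjusted over all of them. Ratios and shares were compared with exact two-sided permutation tests over libraries (scipy 1.17.1). The procedure was run on simulated counts in which only a small part of the genes changed, in both directions. The simulation held no shift of all genes, so it does not bear on the choice of scaling. Pseudogene copies (at least 90% identity over 200 bases) were searched with minimap2 2.31-r1302 and motifs with Python 3.11.15.

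All 10 genes are named, as is every further S100 gene and annexin. Of the lists of partners, targets, membrane repair and penta-EF-hand genes, called genes with a mean of at least 1 FPKM are named, up to 4 per direction by size of change, and a few uncalled genes of these lists and cell type markers were named after their values were seen. The 10 genes and the lists were chosen with earlier results of these data known. Alternatives covered the scaling, pseudocount, filter and trend, a fit with a replicate block, omission of each library, the adjusted P and limma voom on recovered reads. For genes outside the 10 these were added after seeing the data.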

Additional observations from a re-analysis of the deposited data

How the results depend on the processing

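Of the 10 genes, 7 were called higher and 0 lower with pseudocounts of 1 and 0.01, a mean of at least 1 FPKM, no filter, no trend, limma voom on recovered reads and the adjusted P. With FPKM as deposited 6 were called higher and 1 lower (Anxa6), with TPM 4 higher and 1 lower (Anxa6), and with quantile normalization 3 higher and 0 lower. Over all genes the same 3 scalings called 14%, 9.31% and 22.2% higher and 42%, 53.1% and 24.2% lower. Leaving out each library in turn gave 6 to 8 called higher and 0 called lower. The shares of all genes called were not computed for those fits. The log2 fold change reversed for S100a4 with quantile normalization (-0.20), for S100a13 as deposited (-0.28) and with TPM (-0.56), for Anxa1 with TPM (-0.17) and quantile normalization (-0.068), and for Anxa3 as deposited (-0.079), under TPM (-0.38) and under quantile normalization (-0.18). The cause of these reversals beyond the shift of all genes was not tested. With each library left out in turn, S100a13 ranged from -0.056 to 0.48 and reversed without control replicate 3 or Al replicate 2. The difference in log2 ratio ranged from -1.18 to -1.02 for S100a10 to Anxa2 and from 0.97 to 1.26 for S100a11 to Anxa1, and with quantile normalization, added after seeing the data, these were -1.06 and 0.66. The difference in share ranged from 0.463 to 0.707 percentage points. With the 50 most abundant genes and the ribosomal protein genes out of the denominator that difference was 1.27 in place of 0.564. Outside the 10 genes, S100a3 reversed as deposited (-0.36), under TPM (-0.62) and under quantile normalization (-0.024) and ranged from -0.020 to 0.19 with a library left out. S100a14 reversed with a pseudocount of 1 (0.046) and with voom (0.21) and ranged from -0.50 to 0.36. S100a16 reversed as deposited (-0.039) and with TPM (-0.33), Anxa4 with TPM (-0.21) and Chmp2a with TPM (-0.086). Calls on genes under 1 FPKM are limited by depth, since S100a1, S100a5 and S100a8 rest on 0 to 15 reads per library. Same-numbered libraries did not deviate together (correlations of -0.077, -0.060 and -0.112). Correlations between differently numbered libraries were also weak, and each group has only 3 libraries. These values therefore cannot decide whether the numbers pair the samples. With the replicate number as a block, 7 genes were called higher and 0 lower, and the exact sign-flip permutation P of the ratios and the share was 0.25, the smallest that 3 pairs allow.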

Other observations

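S100a2, a gene named after its values were seen, lies inside the S100a3 gene model on chromosome 3. It was at 0.0834, 0 and 0.285 FPKM in the control libraries and at 1.19, 0.726 and 2.25 FPKM in the Al libraries, from 0 to 4 and 5 to 15 recovered reads per library. The groups did not overlap and the scaled log2 fold change was 3.13 (SE 0.50, adjusted P = 0.00074, limma). Unlike in the 10 genes described above, Al replicate 3 was the highest library.

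Among the astrocyte markers 4 of 7 were tested, 1 was called higher and 1 lower, against 26.2% and 24.4% of all genes. Slc1a3, the glutamate transporter GLAST, was at 22.8, 20.1 and 13.8 FPKM in the control libraries and at 1.19, 1.47 and 2.43 FPKM in the Al libraries (log2 fold change -2.96, SE 0.24, adjusted P = 2.36e-05, limma). Gja1, the gap junction protein connexin 43, was at 19.2, 22.0 and 18.4 FPKM in the control libraries and at 30.7, 36.1 and 31.5 FPKM in the Al libraries (log2 fold change 1.20, SE 0.12, adjusted P = 6.36e-05, limma). With TPM its log2 fold change was 0.42, below the fold threshold. Neither gene had overlapping groups.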
